A study of Mus musculus with 18 samples.

Results

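miR-346-5p (mmu-miR-346-5p in the table) is the 5′ arm of a microRNA hairpin, Mir346, that lies in an intron of Grid1, the gene of an ionotropic glutamate receptor subunit of the delta class. It was chosen by name from results of these same libraries, in which it was low in kidneys of germacrone-treated diabetic mice, so its levels are given here as a description and no comparison between groups is tested for it. One entry of the table, 1 of 1184 named entries, bears its name. Small RNA was sequenced from mouse kidney in 18 libraries of 3 groups with 6 libraries each. Control kidneys came from C57BL/6J mice that received 0.9% saline. Kidneys with diabetic nephropathy (DN) came from C57BL/KsJ mice that also received saline. In the treated group, C57BL/KsJ mice with DN received 10 mg/kg/day of germacrone, a sesquiterpene found in plants. The labels state no genotype, age, sex or length of treatment. Because control mice were of another strain than the mice of the DN and treated groups, effects of strain and of disease cannot be told apart where control is compared.

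A microRNA is cut from its hairpin by Drosha and Dicer, and 1 arm is loaded into Argonaute, where its seed (bases 2 to 8) pairs with sites in messenger RNAs and lowers their output. miR-346 has been reported to bind transcripts of Smad3 and Smad4, which carry the TGF-beta signal that drives matrix build-up in the diabetic kidney. An intronic miRNA can be made from its host transcript. These small RNA libraries hold no measure of Grid1 messenger RNA.

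The hairpin occupies chr14:34894609-34894706 on the plus strand (GRCm38), inside intron 2 of the 16-exon protein-coding transcript of Grid1 in GENCODE, on the same strand as the gene. It lies 71900 bases after exon 2 and 51046 bases before exon 3, so it is far from either splice site. The sequences below are from RefSeq (GRCm38.p6). They are shown to identify the measured arm and its seed, and because its base composition is set beside its levels further on. Capitals mark the mature 5′ arm in the hairpin, and the seed in each mature arm.
Mir346 hairpin: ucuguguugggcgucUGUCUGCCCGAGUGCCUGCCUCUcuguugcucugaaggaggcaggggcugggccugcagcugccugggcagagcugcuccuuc
miR-346-5p: uGUCUGCCcgagugccugccucu
miR-346-3p: aGGCAGGGgcugggccugcagc

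RNAfold folded the hairpin at a minimum free energy of −49.7 kcal/mol and paired 18 of the 23 bases of the 5′ arm, 17 of them with bases of the 3′ arm. Of 1679 mature mouse miRNA sequences in the RefSeq table, 1 has this seed, miR-346-5p itself, so no seed family member could be set beside it. The longest stretch it shares with any other of these sequences is 10 bases, with miR-7066-3p. All 18 raw values of miR-346-5p were whole numbers and no other named entry held the same values. G and C make up 65.2% of the 5′ arm, which is more than in 95.7% of the 372 tested mouse miRNAs with a RefSeq sequence (median 47.7%). The 3′ arm, at 77.3% G and C, was not analysed here.

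Total counts ran from 3645173 to 7239343 per library. Kidney-enriched miRNAs such as miR-192-5p and the miR-30 family had a summed level between 114083 and 448561 CPM (counts scaled to a common library size of 1e6 reads), where the lowest value was that of DN 2 and the next 255265 CPM in control 4, and none of their entries was at 0. This sum runs over 14 entries under 11 names, so miRNAs that stand on several entries, such as miR-30c-5p, count more than once. Against the other libraries of their group, DN 2 and DN 3 had the lowest median correlations of log2 CPM over all tested entries, 0.896 and 0.926, and control 2 followed at 0.946, while the other 15 libraries lay between 0.958 and 0.973. Fold changes and most correlations of miR-346-5p are given with and without these 3 libraries. Whether the libraries of a group came from different animals is not stated in the labels.

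miR-346-5p was highest in control kidneys, lower in DN kidneys and lowest in treated kidneys, with group means of 39.4 ± 21.3, 16.3 ± 12.0 and 9.51 ± 4.32 CPM (mean ± SD, n = 6 each). Library sizes were scaled by trimmed means (TMM). In control libraries 1 to 6 the level was 30.3, 65.0, 31.5, 20.2, 67.5 and 22.0 CPM. Control 2 and control 5 stood at more than double the level of the other 4, whose mean was 26.0 ± 5.74 CPM. In DN libraries 1 to 6 it was 11.3, 17.8, 39.6, 6.40, 12.5 and 10.2 CPM. DN 3 lay above 4 of the 6 control libraries, and the other 5 DN libraries lay below every control. In treated libraries 1 to 6 it was 10.0, 8.53, 10.4, 17.0, 4.13 and 7.01 CPM. All of these lay below the lowest control library, and treated 4 was the only one above the DN median of 11.9 CPM.

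**Figure D1:**
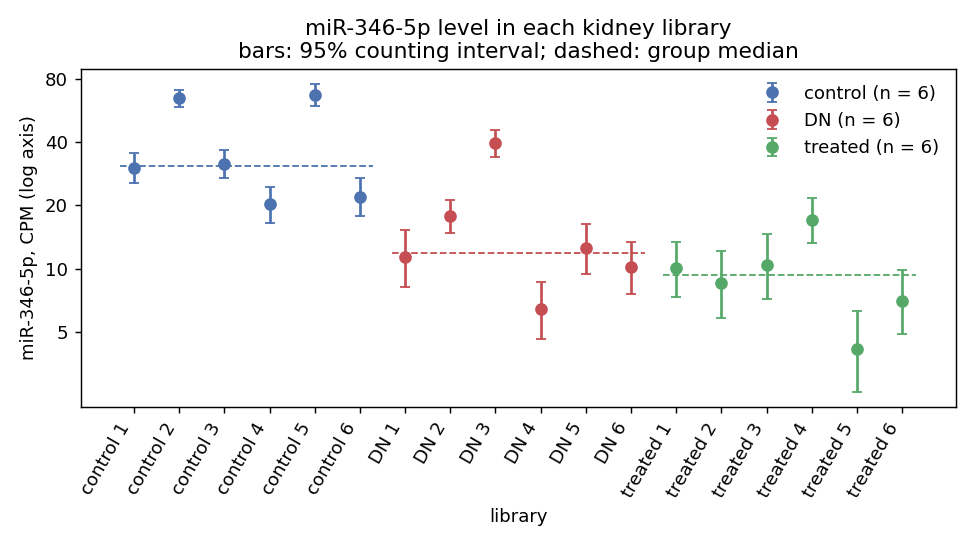
Level of miR-346-5p in each of the 18 libraries, in CPM on a log axis, with 95% exact Poisson intervals of the count as bars and the median of each group of 6 as a dashed line. Treated libraries lie between 4.13 and 17.0 CPM, all under the lowest control at 20.2 CPM, while DN 3, at 39.6 CPM, lies among the controls.

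The counts behind these levels were 93 to 479 reads per control library, 42 to 181 per DN library and 22 to 67 per treated library. The lowest, 22 reads in treated 5, has an exact Poisson interval of 13.8 to 33.3 reads. That of DN 3, 181 reads, runs from 156 to 209 reads, and that of control 4, 99 reads, from 80.5 to 121 reads. These intervals cover counting error only. Spread between libraries was wider than counting error in each group: the coefficient of variation was 54.0% in control, 73.6% in DN and 45.4% in treated, where the mean count alone would give 6.86%, 11.0% and 16.1%. The SD of log2 CPM within a group was 0.745, 0.866 and 0.643, larger than that of 71.2%, 65.1% and 75.1% of the 619 tested entries. In whole kidney, fewer cells that make miR-346-5p and less of it per cell cannot be told apart.

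By its mean over all libraries, 21.7 CPM, miR-346-5p was number 317 of 485 tested entries with a mouse name, between miR-877-3p at 21.8 CPM and miR-196b-3p at 20.7 CPM. Its place among all 619 tested entries ran from 253 to 362 over the control, 290 to 461 over the DN and 366 to 490 over the treated libraries.

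The first comparison, DN against control, bears on the change that comes with diabetic nephropathy. miR-346-5p had a log2 fold change (log2FC) of −1.28 (SE 0.431), and control was 2.42-fold higher. In 32 of the 36 pairs of a DN and a control library the DN library was lower, and the 4 exceptions all involved DN 3. Of the 619 tested entries, 13 (2.1%) had a log2FC at or below −1 in this comparison, and 10 entries under 8 names had a lower log2FC than miR-346-5p, against a median of 0.075 over all entries. The groups overlapped, as they did for every one of the 619 entries (0% without overlap). Without DN 3 the DN mean was 11.6 ± 4.11 CPM (n = 5) and the log2FC was −1.75, and without control 5 it was −0.99.

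The second comparison, treated against DN, bears on the effect of germacrone. miR-346-5p had a log2FC of −0.78 (SE 0.438), with the treated library lower in 27 of 36 pairs. This value rested on DN 3: the log2FC was −0.33 without that library and −0.093 without control 2, DN 2 and DN 3. The 4 remaining DN libraries had a mean of 10.1 ± 2.64 CPM, against 9.51 ± 4.32 CPM in the 6 treated libraries. Each of these 4 lay within the range of the treated group. A log2FC at or below −1 was seen for 47 of 619 entries (7.59%) and not for miR-346-5p, and 69 entries under 60 names had a lower value.

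The third comparison, treated against control, is the one in which miR-346-5p was picked out. The log2FC was −2.05 (SE 0.436), so that control was 4.15-fold higher, and the treated library was lower in 36 of 36 pairs. A log2FC at or below −1 was seen for 44 of 619 entries (7.11%), and 6 entries under 4 names had a lower value than miR-346-5p. Some miRNAs stand on several entries with the same values, and the 619 entries carry 505 names. In 32 entries (5.17%) under 28 names the groups did not overlap, and in 10 of them (1.62%), under 8 names, treated was lower. Of those 8, miR-346-5p had the lowest log2FC, followed by miR-150-5p, a lymphocyte miRNA, at −1.31. Among 92 mouse entries (87 names) whose mean CPM was within a factor of 2 of that of miR-346-5p, the median log2FC was −0.017 and 1 miRNA had a lower value, miR-124-3p, which stands on 3 entries. All 3 comparisons share libraries, so their values are not independent of one another.

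**Figure D2:**
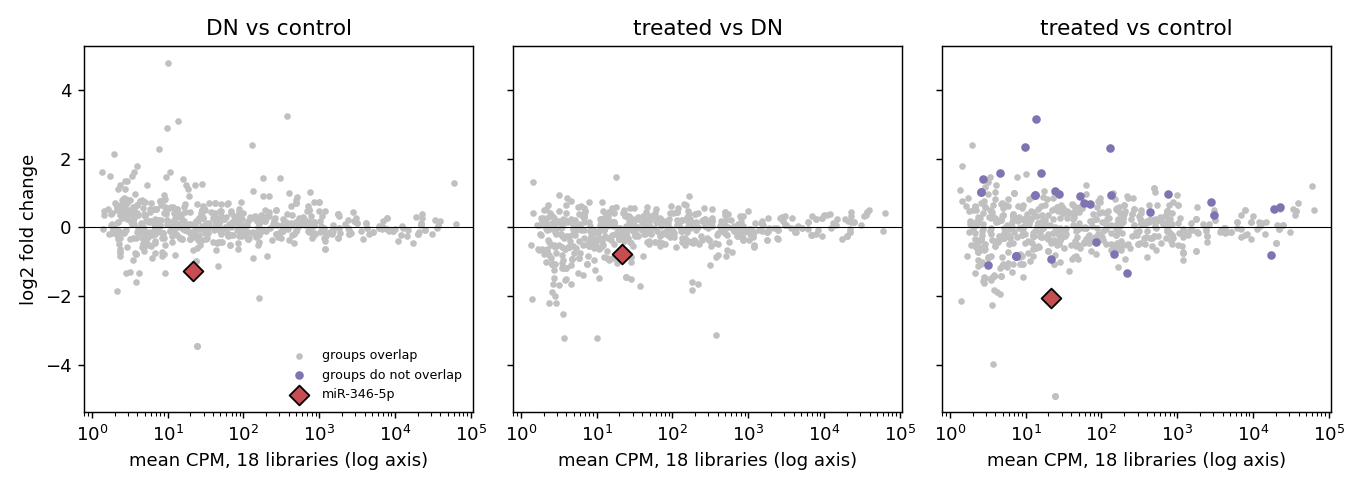
Log2FC of each of the 619 tested entries (vertical axis) against its mean CPM over 18 libraries (log axis) in the 3 comparisons, with entries whose groups do not overlap in purple and miR-346-5p as a red diamond. miR-346-5p sits at −1.28, −0.78 and −2.05, below most entries of its level in the outer panels.

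Libraries differed in how their miRNA levels tilted with GC content, and this is set beside the level of miR-346-5p as a description. For each library, the deviation of each of 372 miRNAs from its 18-library mean of log2 CPM was correlated across miRNAs with the GC content of its mature sequence. This correlation, the GC tilt, was 0.573 in control 2, 0.513 in DN 3, 0.393 in control 3 and 0.247 in control 5, and −0.410 to 0.105 in the other 14 libraries. In control 2 the 48 miRNAs with at least 60% GC had a median deviation of 0.915 and the 69 with at most 40% GC one of −0.976, and in DN 3 these were 0.775 and −0.792. Of the 4 libraries with the most positive tilt, control 2, control 5 and DN 3 were also those with the highest levels of the GC-rich miR-346-5p. Over the 18 libraries, its log2 CPM and the tilt had a Pearson r of 0.625 and a Spearman rho of 0.453. Pearson r was 0.510 after removal of the group means and 0.407 without control 2 and DN 3. Over the 15 libraries without control 2, DN 2 and DN 3 it was 0.399, and −0.012 with group means removed. The tilt had a median of 0.085 in control, −0.141 in DN and −0.261 in treated libraries.

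When a linear GC trend was removed from each library, an alternative chosen after the data were seen, miR-346-5p in control 2 went from 1.98 to 0.910 above its 18-library mean on the log2 scale, and in DN 3 from 1.27 to 0.421. Control 5 kept the highest value, at 1.75 in place of 2.03. With this trend in the fit, the log2FC was −1.17 in DN against control, −0.31 in treated against DN and −1.48 in treated against control. DN libraries then lay between −1.22 and 0.421, treated libraries between −1.98 and 0.419 and control libraries between 0.503 and 1.75. The DN library was lower than control in 36 of 36 pairs, and so was the treated library. How many other entries were without overlap after this removal was not counted. Removing the mean deviation of each library as well left 35 of 36 pairs in both comparisons, as treated 4 (0.562) and DN 3 (0.473) then exceeded control 4 (0.308). The SD within a group became 0.458 in control, 0.540 in DN and 0.824 in treated libraries, narrower in control and DN and wider in treated.

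**Figure D3:**
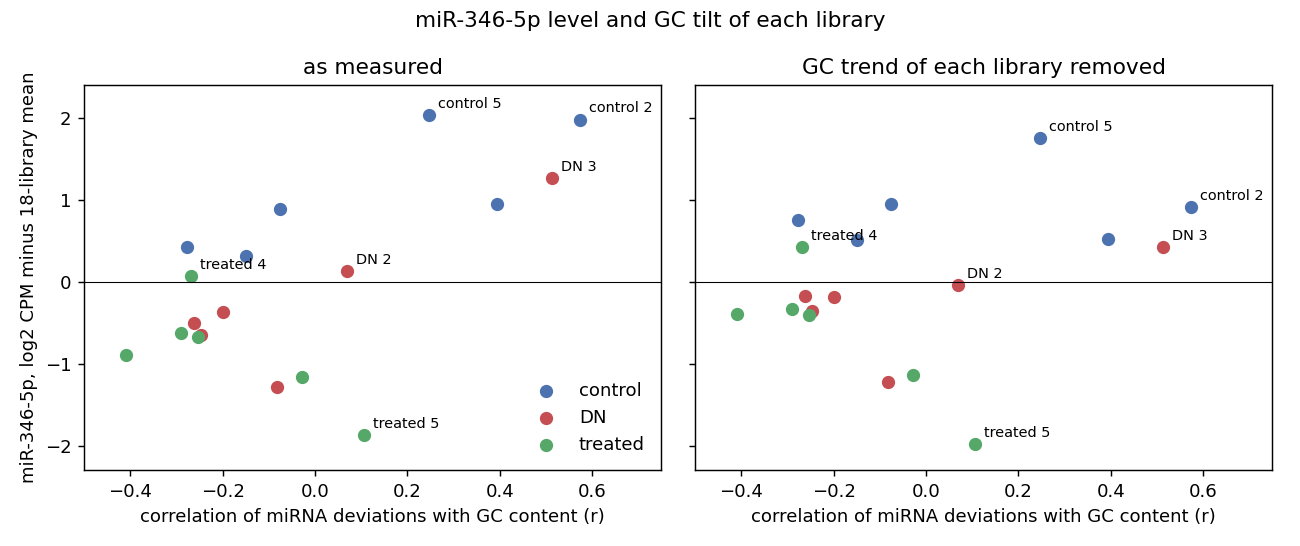
Deviation of miR-346-5p from its 18-library mean of log2 CPM (vertical axis) against the GC tilt of each library (horizontal axis), as measured on the left and after removal of each library's linear GC trend on the right. Control 2 and DN 3, the libraries with the largest tilt, drop from 1.98 and 1.27 to 0.910 and 0.421.

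The mouse entries most like miR-346-5p over the 18 libraries, out of 484 compared by Pearson r of log2 CPM, were let-7b-5p (r = 0.790, rho = 0.713), miR-484 (0.786, 0.765), miR-877-3p (0.776, 0.775), miR-345-5p (0.768, 0.715) and miR-324-3p (0.762, 0.701). Those most opposed were miR-152-3p (r = −0.820, rho = −0.723), miR-802-3p (−0.805, −0.761) and miR-542-3p (−0.780, −0.721). miR-802-3p was near the floor in control libraries, with a mean of 2.26 CPM. In control 2 and control 3 it was at 0 CPM, where its log2 value is set by the prior count. The libraries differ in the GC tilt given above, and these correlations describe likeness only. The mature sequences are given with seeds in capitals, and their GC content follows below them.
let-7b-5p: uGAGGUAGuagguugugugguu
miR-484: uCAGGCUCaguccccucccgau
miR-877-3p: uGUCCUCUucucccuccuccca
miR-345-5p: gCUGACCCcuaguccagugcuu
miR-324-3p: cCACUGCCccaggugcugcu
miR-542-3p: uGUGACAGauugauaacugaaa
miR-802-3p: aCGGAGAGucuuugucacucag
miR-152-3p: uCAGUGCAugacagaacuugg

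GC content was 59.1% to 70% in miR-484, miR-877-3p, miR-345-5p and miR-324-3p. In let-7b-5p, an abundant miRNA of the growth-restraining let-7 family, it was 45.5%. In the opposed set it was 31.8% in miR-542-3p, 50% in miR-802-3p and 47.6% in miR-152-3p. The sets thus overlapped in GC content, as let-7b-5p lay below miR-802-3p and miR-152-3p. With group means removed, the likeness of let-7b-5p to miR-346-5p was r = 0.583 and that of miR-484 was 0.700. Without the 2 libraries farthest from the median of miR-346-5p the 5 most like entries had r between 0.603 and 0.677. Over the 15 libraries without control 2, DN 2 and DN 3 these 5 had r between 0.641 and 0.742 and the 3 opposed entries between −0.758 and −0.713. With group means removed as well, r was 0.022 to 0.454 and −0.318 to −0.0058, so that the likeness within groups rested in large part on those 3 libraries. The relation did not hold in every group. For let-7b-5p r was 0.827 over the 6 control, 0.856 over the 6 DN and −0.735 over the 6 treated libraries, and the difference between groups was not tested.

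Group means of let-7b-5p had the same order as those of miR-346-5p, at 22561 ± 5635, 16351 ± 7613 and 13019 ± 1901 CPM in control, DN and treated kidneys. miR-877-3p, which has nearly the same mean level as miR-346-5p, was at 30.3 ± 10.6, 19.1 ± 11.4 and 15.9 ± 0.630 CPM, a smaller range (log2FC −0.93 in treated against control). miR-152-3p, reported to act on DNA methyltransferase 1, ran the other way at 2086 ± 708, 2854 ± 982 and 3498 ± 430 CPM.

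Beyond miR-346-5p, the list of miRNAs from introns of receptor and channel genes had 23 members, of which 5 were tested. By the edgeR quasi-likelihood test with Benjamini-Hochberg adjustment, 0 of these 5 passed in any comparison, as did 0 of all 619 entries in each (0%). At an unadjusted p under 0.05 there were 47 entries (7.59%) in DN against control, 23 (3.72%) in treated against DN and 121 (19.5%) in treated against control. DESeq2 called 4, 0 and 18 entries, and limma-voom 91, 0 and 106. In contrast to the values of miR-346-5p, miR-204-5p from an intron of Trpm3, a cation channel gene, had log2FC of 1.02, −0.058 and 0.96 in the 3 comparisons in that order. The other members had 0.47, −0.023 and 0.45 for miR-224-5p of Gabre, 0.83, −0.95 and −0.13 for miR-489-3p of Calcr, 0.41, 0.42 and 0.83 for miR-211-5p of Trpm1 and 0.98, −0.31 and 0.66 for miR-204-3p. The median of the list was 0.83, −0.058 and 0.66, beside 0.075, −0.054 and −0.0035 over all entries.

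miRNAs linked to TGF-beta and Smad signalling, the pathway of the reported miR-346 targets, held 28 tested entries under 24 names. None passed in any comparison (0 higher and 0 lower). Their median log2FC was 0.19, −0.026 and 0.19, with 19, 12 and 19 of 28 entries higher. Over all 619 entries, 350, 261 and 308 were higher. Some of the 24 names stand on several entries with the same values and count more than once. The most abundant were miR-21a-5p, which is raised in fibrotic kidney (log2FC 1.30, −0.11 and 1.19), miR-143-3p of smooth muscle (−0.0073, 0.37 and 0.36), miR-192-5p of tubules (0.39, 0.14 and 0.53) and miR-200a-3p of epithelium (0.14, 0.44 and 0.58). miR-324-3p was both in this list and among the 5 entries most like miR-346-5p, with −0.43, −0.41 and −0.84.

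Markers of cell types that whole kidney can hold were set beside miR-346-5p, and their part in its level was not tested. None of their entries passed in any comparison. Names that stand on several entries count more than once in the sums and mean log2 levels of all these lists. Of the nerve, adrenal and islet list 14 of 18 names were tested, on 25 entries. Its summed level was 1366 to 3747 CPM over the control libraries, 1928 to 2132 CPM over the DN libraries and 1943 to 2462 CPM over the treated ones, and its mean log2 level had r = 0.174 with miR-346-5p over the 18 libraries and −0.034 with group means removed. The highest sum, 3747 CPM, was in control 4, which had the lowest miR-346-5p of its group. The endothelial pair, both arms of miR-126a, had r = −0.486, and −0.563 with group means removed. This rested on the 3 libraries that stand apart, since without them r was −0.099, and 0.154 with group means removed. Its mean log2 level was −1.38 in control 2, −1.14 in DN 2 and −1.33 in DN 3, near the lowest of their groups, and these were libraries of high miR-346-5p within their group.

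The leukocyte list (8 of 8 names tested) had a summed level of 26096 CPM in DN 2, against 1590 as the lowest DN value, between 3177 and 4225 CPM in control libraries and between 1847 and 9122 CPM in treated ones. miR-346-5p in DN 2 was 17.8 CPM, and without DN 2 its log2FC in DN against control was −1.24. For the other lists the correlation with miR-346-5p was 0.096 for leukocytes, −0.441 for kidney-enriched miRNAs (11 of 12 names tested), −0.323 for smooth muscle, mesangial cells and pericytes (7 of 7), −0.324 for red blood cells (4 of 4), 0.033 for striated muscle (3 of 6) and 0.050 for liver (1 of 2). Without control 2, DN 2 and DN 3, r was 0.257 for leukocytes, −0.696 for kidney-enriched miRNAs and −0.323 for smooth muscle, mesangial cells and pericytes. It was −0.242 for red blood cells, 0.268 for striated muscle, 0.085 for liver and 0.168 for the nerve, adrenal and islet list. With group means removed as well, the values in this order were −0.247, 0.025, −0.282, −0.325, 0.097, 0.120 and −0.300. These are descriptions over libraries that share 1 scaling.

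**Figure D4:**
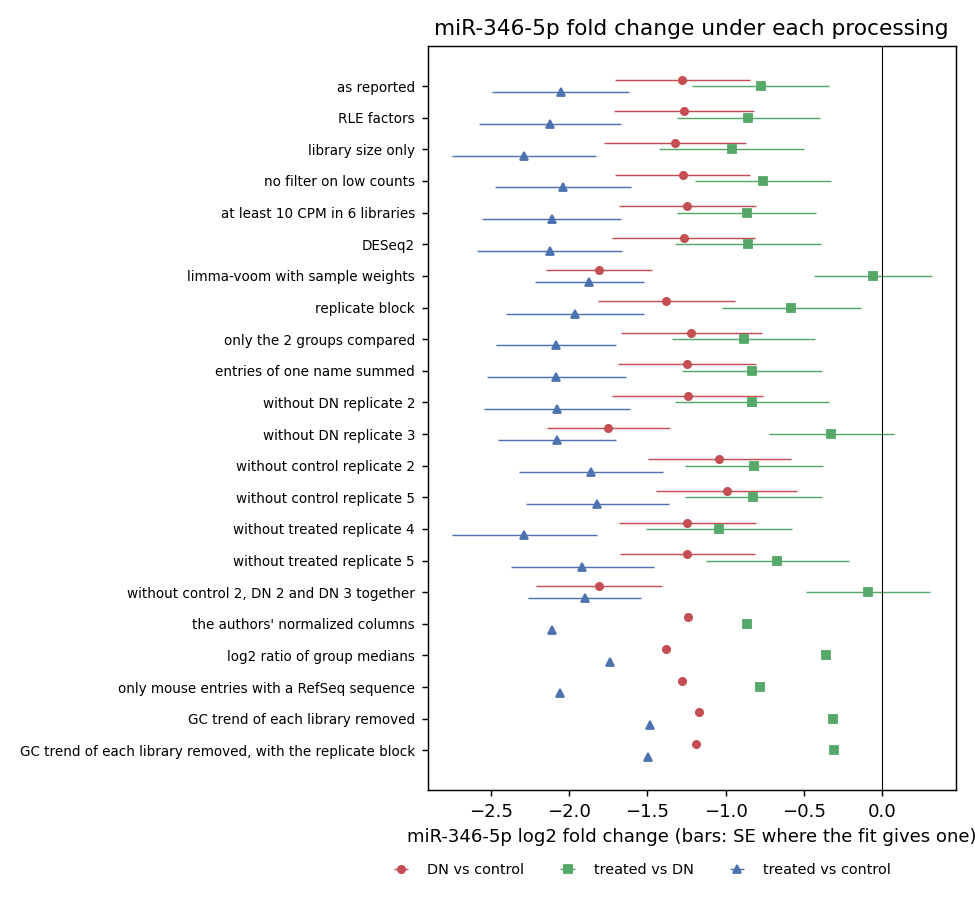
Log2FC of miR-346-5p in the 3 comparisons (horizontal axis, bars are SE where a fit gives one) under each way of processing the counts and with single libraries left out (rows). Values for treated against control stay between −2.29 and −1.48 and those for DN against control between −1.81 and −0.99, while treated against DN reaches −0.061 with limma-voom.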

How the data were processed

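Small RNA of mouse kidney was read from 1 deposited table, in which each of 18 libraries has raw and normalized values. Per the labels' protocols, reads were filtered with ACGT101-miR, and Trimmomatic 0.32, BWA, SAMtools and edgeR are listed in the submitters' processing notes. Neither a genome build nor a miRBase release is given in the sources. The raw columns deposited by the authors hold estimated counts, which were rounded to whole numbers. The normalized columns deposited by the authors hold a signal in which each library's raw values are multiplied by its own factor (0.6644 to 1.427), used only as an alternative. Of 1534 entries, 350 without a name (0.0136% to 0.148% of a library's counts) were left out. The filter of edgeR 4.0.16 (R 4.3.3; minimum count 10, minimum total 15) kept 619 entries, fitted over all 18 libraries with TMM factors and the legacy quasi-likelihood method, group as the only factor. SE come from the working weights of that fit. log2 CPM used a prior count of 2. Alternatives used RLE factors, library size only, other filters, DESeq2 1.42.0, limma 3.58.1 (voom with sample weights), a replicate block, 2 groups only, summed names, libraries left out and, added after seeing the data, a GC trend per library. The fit was tested on simulated data. Hairpins were folded with RNAfold 2.7.2. GC content was available for 372 of 441 tested mouse names (84.4%). Entries of other name were named by fixed rules: the 5 most and 3 least alike by r, neighbours by mean CPM, and up to 4 list members of highest mean CPM. Others, such as miR-150-5p, the fifth member of the receptor list and list members shared with the likeness set, were picked after their values were seen. The miRNA and the lists were chosen with earlier results of these data known. Since separate animals are not stated, p-values reflect the spread of these samples alone, and that spread may be technical.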

Additional observations from a re-analysis of the deposited data

Results flagged for a closer look

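The level of miR-346-5p in DN 3, 39.55 CPM, stood far from the other 5 DN libraries, which lay between 6.40 and 17.8 CPM. The gap to the next library made up 0.658 of the range of the group, above the limit of 0.625 that Dixon's test sets for 6 libraries. For normally distributed values, chance passes this limit in about 1 of 20 groups. Both ends of all 3 groups were examined here, on several scales, for a miRNA chosen for its levels. That rate therefore does not hold for the gaps as a set. The highest treated library, treated 4 at 17.0 CPM, had a gap of 0.516 and did not pass, nor did the control libraries, where the gaps were 0.0545 at the top and 0.0369 at the bottom. DN 3 passed on the CPM scale only: on log2 CPM its gap was 0.446 of the range, and 0.281 with each library's GC trend removed, where it stood at 0.421 against −0.041 in DN 2. With the GC trend removed, the gap of control 5 at the top of the control group was 0.645, above the limit.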

How the results depend on the processing

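miR-346-5p kept its sign in all 33 alternatives of each comparison, and no value moved by more than the SD between libraries (0.696 to 0.808). In treated against DN this SD, 0.763, is nearly as large as the log2FC of −0.78. A value close to no change therefore stays within it, and that comparison cannot be called stable by this measure. Its log2FC ranged from −1.81 to −0.99 in DN against control, −1.04 to −0.061 in treated against DN and −2.29 to −1.48 in treated against control. With 1 library left out the ranges were −1.75 (without DN 3) to −0.99 (without control 5), −1.04 (without treated 4) to −0.33 (without DN 3) and −2.29 to −1.82. Without DN 2 the 3 values were −1.24, −0.83 and −2.08. With control 2, DN 2 and DN 3 left out they were −1.81, −0.093 and −1.90. With the replicate number as a block they were −1.38, −0.58 and −1.96, with 0 entries called. Libraries of the same number correlated above 0.1 in 3 of 6, 0 of 6 and 0 of 6 pairs. Libraries of unlike number were not compared, so this cannot decide whether the numbers pair libraries. Pairs of libraries in which the first group was lower numbered 36 of 36 in DN against control with the GC trend removed. They numbered 35 in treated against control with the mean deviation removed too. The share of all entries without overlap was not counted under either removal.

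Entries called in DN against control numbered 2 at 10 CPM in 6 libraries, 4 by DESeq2, 91 by limma-voom, 51 without control 2, DN 2 and DN 3, 2 among mouse entries with a RefSeq sequence, 1 with the GC trend removed and 1 with the block added. In treated against control they numbered 18 by DESeq2, 106 by limma-voom, 56 in the fit of 2 groups, 50 without the 3 libraries, 5 with the GC trend removed and 1 with the block added. Leaving out 1 library gave 0 to 6 calls in DN against control (6 without DN 2 and 6 without DN 3) and 0 to 7 in treated against control (7 without DN 2, 3 without DN 3). The cause was not tested. The test of miR-346-3p was not run. At 22 to 67 reads per treated library, depth limits each treated value to the interval of its count.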

Other observations

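Among 404 mouse entries with a RefSeq sequence, the 55 whose log2 CPM correlated with that of miR-346-5p above 0.5 had a median GC content of 57.1%, and the 64 that correlated below −0.5 had one of 40.9%, against 47.6% over all 404. These correlations ran over all 18 libraries, among them control 2 and DN 3, which had the strongest positive GC tilt. The sets were not formed without control 2, DN 2 and DN 3, nor with group means removed. miRNAs that stand on several entries count more than once. These counts are given without a test, since miRNAs of 1 library share its depth and composition.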
